A study of Arabidopsis thaliana with 24 samples.

Results

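The RNA decay machinery was followed as 37 genes, out of 38194 features in the table, in leaves of Arabidopsis thaliana accession Columbia-0. They were taken by locus from a list of known decay factors and fall into 8 branches: decapping (12 genes), 5′-3′ exonucleases (3), deadenylation (6), the exosome and its helicases (5), the SKI complex with PELOTA (4), SOV (1), uridylation (2) and nonsense-mediated decay (4). The rule uses function and locus, not measured values, and all 37 passed the filter on low counts in every comparison. Leaves 1 and 2 of soil-grown plants, kept for 10 d in continuous light, were detached, surface sterilised and shaken for 8 h in a salt buffer with 5% glucose and 0.2% dimethyl sulfoxide. Mock leaves received that buffer alone. Stimulus leaves also received 20 µM bikinin, which inhibits the kinases that restrain brassinosteroid signalling, 2.5 µg/mL of the synthetic auxin 2,4-D and 0.5 µg/mL of the cytokinin kinetin. All leaves then received 1 mM cordycepin, an adenosine analogue that ends RNA chains, and were frozen 0, 15, 60 or 240 min later. Each of the 8 groups has 3 libraries, numbered 2, 3 and 4, each made from a pool of detached leaves. The study asked how RNA abundance and RNA decay rates respond to the stimulus.

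Cytoplasmic mRNA decay usually starts with shortening of the poly(A) tail by the CCR4-CAF1-NOT complex. The shortened mRNA is then decapped by DCP2 with its partners and degraded from the 5′ end by XRN4, or degraded from the 3′ end by the exosome with the SKI complex. SOV, a relative of the animal nuclease DIS3L2, is a further 3′-5′ exonuclease, and Columbia-0 is known to carry a non-functional allele, so its transcript level says nothing of activity. Nonsense-mediated decay removes transcripts with premature stop codons, and uridylation by URT1 or HESO1 marks RNA 3′ ends.

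The treatment labels were first checked on GH3.3, an auxin-induced transcript, which stood at 0.749 to 7.33 CPM (counts scaled for library size) in the 12 mock libraries and at 153 to 740 CPM in the 12 stimulus libraries. The time labels were in conflict with the values. The mean log2 change, since 0 min, of 100 transcripts that fell most steeply in stimulus replicate 2 is called the decline index here, and it should become more negative with time in cordycepin. At 240 min it was -2.87 and -2.73 in mock and stimulus replicate 4, but only -0.11 in mock replicate 2 and -0.46 in mock replicate 3, where 60 min stood at -1.77. A score of evening over morning clock genes also split the libraries into 17 at -1.44 to 0.418 and 7 at 1.41 to 2.67, and mock replicate 3 at 0 min was the 1 library of the 6 at 0 min on the high side. Leaf marker transcripts summed to 8374 to 16130 CPM in mock and 7094 to 8411 CPM in stimulus at 0 min, while root, seed and flower markers stayed at 11.7 CPM or less in every library; the part of these differences in the results was not tested. Library totals ran from 24021278 to 34166478 counts. Results at 0 min, where time in cordycepin plays no part, are given first.

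Before cordycepin, the decay genes were expressed well above the typical gene. Per kilobase of exon, the median member stood at 11.4 CPM per kb in mock, against 6.67 over 20054 genes, and 30 of the 37 were above that median. RH6 (22.3 ± 2.12), XRN3 (22.1 ± 1.96), XRN2 (21.8 ± 1.73), LSM1A (21.3 ± 0.336) and PAT1 (20.1 ± 1.89; CPM per kb, mean ± SD, n = 3) were the highest, and their order is within the spread of the libraries. CAF1B (1.47 ± 1.12), PARN (3.87 ± 0.215) and HESO1 (4.48 ± 0.223) were the lowest. Together the 37 genes took 0.123% ± 0.00197 of all counts in mock and 0.158% ± 0.00639 in stimulus at 0 min (SD, n = 3). Scaled by total counts, the median of all genes was also higher in stimulus, by 0.232 log2 units.

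Against mock, stimulus leaves held more RNA of 4 of the 6 deadenylation genes and of 3 of the 5 exosome genes, and the decapping genes changed in both directions, while the 5′-3′ exonucleases and the nonsense-mediated decay factors gave no call. Of the 37 genes, 13 rose and 4 fell at 0 min (edgeR quasi-likelihood test, adjusted p under 0.05). The background was high: 56.3% of 20323 genes were called (26.6% higher, 29.7% lower), against 45.9% of the members. The members' changes were also small, with a median size of 0.205 log2 units against 0.441 over all genes, and a median of 0.094 against -0.016. In 23 of the 37 genes (62.2%) the treatments did not overlap, a share close to the 64.9% of all genes. In RNA from whole leaves, more RNA per cell cannot be told apart from more cells of a type. The split of calls depends on scaling: with library sizes set by total counts, 22 members were called higher and 1, RH6, lower (all genes: 41% and 20.3%), with the median of all genes at 0.232 and of the members at 0.345. The changes below are thus relative to the typical transcript.

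**Figure D1:**
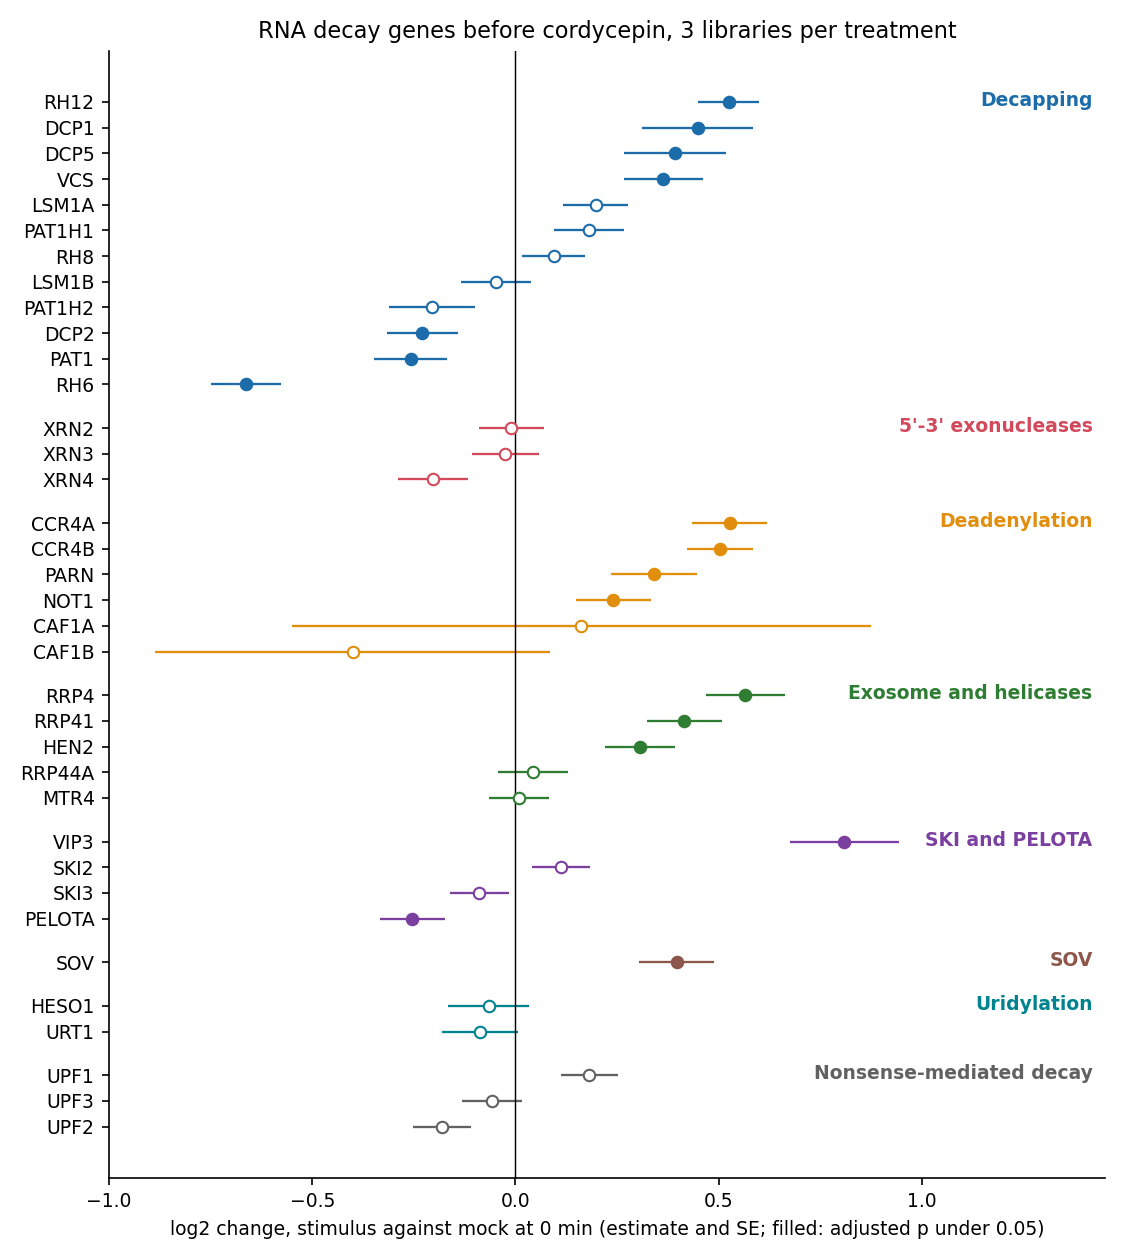
The log2 change of each decay gene reported, in stimulus against mock leaves at 0 min, by branch, with the edgeR estimate as a point and its SE as a bar; filled points were called (adjusted p under 0.05). Deadenylation and exosome calls are all to the right of 0, decapping calls lie on both sides, and no exonuclease, uridylation or nonsense-mediated decay gene is filled.

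Decapping had calls in both directions, 4 higher and 3 lower of 12, around a median of 0.138. The DEAD-box helicases RH6, RH8 and RH12 are close paralogs, related to the yeast Dhh1 and animal DDX6 proteins, which repress translation and promote decapping. RH6 (AT2G45810) fell the most of all 37 genes. Its level was 61.6, 51.2 and 54.7 CPM in mock replicates 2, 3 and 4 and 33.5, 35.4 and 36.8 CPM in stimulus, on a scale set by the 6 libraries of 0 min. The treatments did not overlap, and the log2 change was -0.66 ± 0.09 (SE; edgeR adjusted p 0.000195). RH12 (AT3G61240) went the other way, from 31.6, 30.2 and 29.8 CPM in mock to 40.9, 45.0 and 45.9 CPM in stimulus, a rise of 0.53 ± 0.08 (SE; edgeR adjusted p 0.000326). RH8 (AT4G00660), at 42.9, 39.0 and 42.0 CPM against 44.9, 46.5 and 41.0 CPM, overlapped between treatments and was not called (0.09 ± 0.08). RH8 and RH12 are shown in full because of RH6, a choice made after their values were seen.

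The 3 helicases differed in proportion between treatments, while their summed levels overlapped. Per kilobase, on a scale set by all 24 libraries, their summed level was 43.7 ± 2.68 CPM per kb in mock and 42.8 ± 1.27 in stimulus at 0 min (SD, n = 3), with a two-sided exact permutation p of 0.70. RH6 made up 46.7, 43.9 and 44.7% of that sum in mock replicates 2, 3 and 4 and 29.2, 28.9 and 30.7% in stimulus. This share does not depend on library scaling, and its difference of -15.5 percentage points had an exact permutation p of 0.10, the smallest that 3 against 3 libraries allow. The pattern was noticed in these data before it was measured this way, so this p adds no support to the calls of RH6 and RH12. No stretch of 50 bases, the read length, is shared between the 3 transcripts in the RefSeq annotation, so reads could be told apart. Opposite-strand genes overlap 11.9% of the exon bases of RH8, whose counts are uncertain since the use of strand in counting was not stated.

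**Figure D2:**
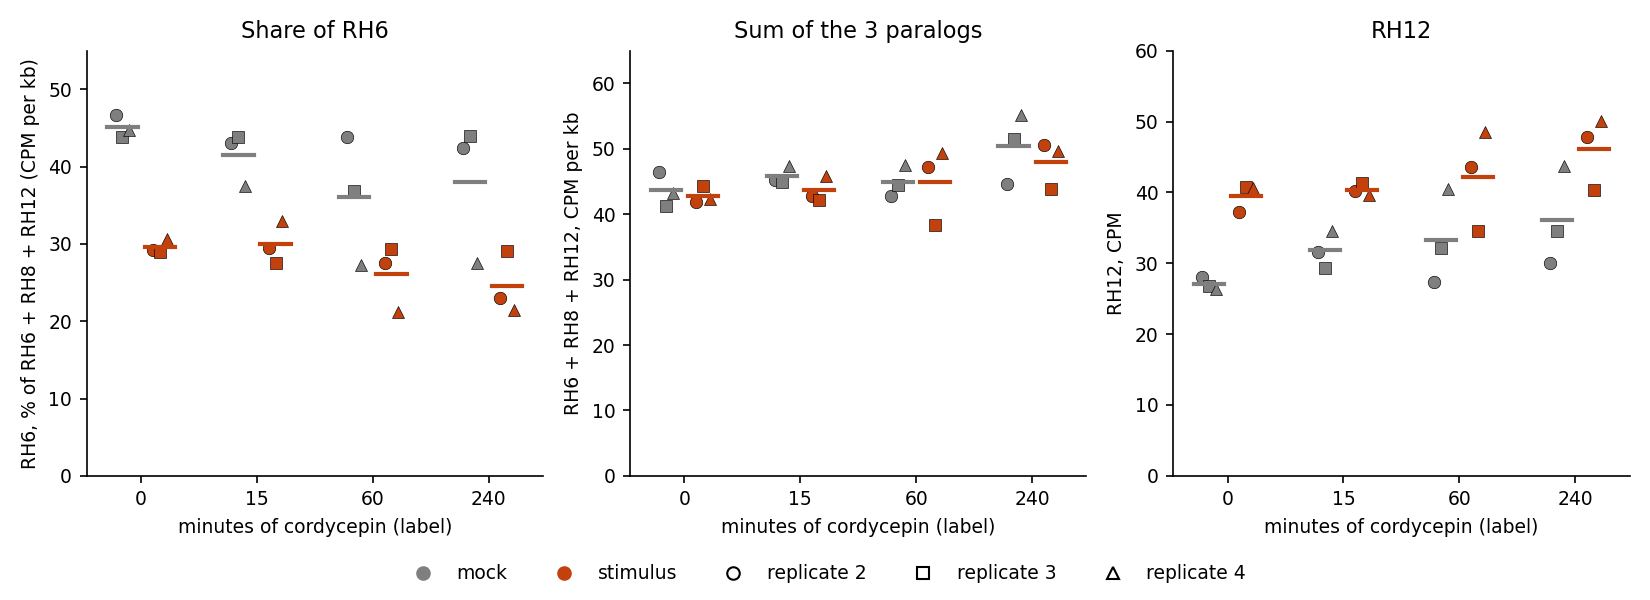
The share of RH6 in the summed CPM per kb of RH6, RH8 and RH12 (left), that sum (middle) and the CPM of RH12 (right) in each of the 24 libraries, by labelled minutes of cordycepin; symbols are replicates and bars the mean of 3 libraries. The share of RH6 at 0 min is 43.9 to 46.7% in mock and 28.9 to 30.7% in stimulus, while the sums overlap, and mock replicate 4 at 60 and 240 min falls to 27.3 and 27.5%.

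Among the other decapping genes, the enzyme and its partners were called in opposite directions. DCP1 (AT1G08370), an activator of DCP2 (AT5G13570), rose by 0.45 ± 0.14, the scaffold VCS (VARICOSE, AT3G13300) by 0.36 ± 0.10 and DCP5 (AT1G26110), which holds mRNA in a translationally repressed state, by 0.39 ± 0.13 (SE; edgeR adjusted p 0.0196, 0.0114 and 0.0246). DCP2, the catalytic subunit, was at 13.6, 14.9 and 14.5 CPM in mock and 12.3, 12.8 and 11.6 CPM in stimulus, a change of -0.23 ± 0.09 (edgeR adjusted p 0.05 after rounding, just under the threshold), which turned to 0.02 with total-count scaling. PAT1 (AT1G79090), which bridges the LSM1-7 ring and the decapping enzyme, fell by 0.26 on the log2 scale (edgeR adjusted p 0.0333), from 69.6, 57.8 and 66.5 CPM to 57.5, 53.2 and 51.4 CPM. Its relatives PAT1H1 (AT3G22270, 0.18 ± 0.09) and PAT1H2 (AT4G14990, -0.21 ± 0.11) were not called, nor were the ring subunits LSM1A (AT1G19120, 0.20 ± 0.08, edgeR adjusted p 0.0635) and LSM1B (AT3G14080, -0.05 ± 0.09). DCP1 and DCP5 lost their call without some single library, as did DCP2 and PAT1, while RH6, RH12 and VCS were called with any 1 library left out.

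Of the 6 deadenylation genes 4 rose and none fell, with a branch median of 0.291. CCR4A (AT3G58560) and CCR4B (AT3G58580), paired deadenylase subunits of the CCR4-NOT complex, rose alike. CCR4A was at 49.9, 40.7 and 47.7 CPM in mock and 62.2, 68.7 and 68.3 CPM in stimulus (0.53 ± 0.09, edgeR adjusted p 0.00111). CCR4B went from 26.7, 22.5 and 25.3 CPM to 35.9, 35.1 and 34.6 CPM (0.50 ± 0.08, edgeR adjusted p 0.000742). For this pair the summed levels did not overlap, while the proportion of CCR4A did. The summed level was 25.7 ± 2.49 CPM per kb in mock against 37.4 ± 0.983 in stimulus (SD, n = 3). Its exact permutation p was 0.10, the smallest possible. Both genes were already higher in stimulus without overlap, so this p followed from their values and adds no support. The share of CCR4A was 65.4% ± 0.51 in mock and 65.8% ± 1.66 in stimulus (SD, n = 3), with an exact permutation p of 0.60. For another pair measured this way, LSM1A with LSM1B, the sum (32.7 and 35.6 CPM per kb) and the share of LSM1A (57.7 and 61.8%) also reached an exact permutation p of 0.10, although neither gene was called. PARN (AT1G55870), a poly(A)-specific ribonuclease, rose by 0.34 ± 0.11 (edgeR adjusted p 0.0206) and the scaffold NOT1 (AT1G02080) by 0.24 ± 0.09 (edgeR adjusted p 0.0498). PARN and NOT1 lost their call without some single library, while CCR4A and CCR4B kept theirs.

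CAF1A (AT3G44260) and CAF1B (AT5G22250), the other catalytic deadenylases of the complex and known as stress-responsive genes, varied more within treatments than between them. CAF1A was at 6.42, 26.7 and 5.58 CPM in mock replicates 2, 3 and 4 and at 7.55, 21.6 and 14.1 CPM in stimulus, so that replicate 3 was the highest in both treatments. CAF1B was at 0.972, 3.64 and 1.21 CPM in mock and 1.33, 1.79 and 1.29 CPM in stimulus, again with replicate 3 on top. Over all 24 libraries CAF1A spanned 15.8-fold and CAF1B 11.1-fold, against 1.43-fold for UPF2 (AT2G39260), the steadiest of the 37. Both peaked in the library labelled mock replicate 2 at 15 min, at 65.3 CPM for CAF1A and 9.52 CPM for CAF1B.

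The exosome branch had 3 genes higher and none lower of 5, with a median of 0.307. RRP4 (AT1G03360) and RRP41 (AT3G61620) are subunits of the exosome core, the ring through which RNA is threaded. RRP4 rose from 14.8, 17.1 and 17.5 CPM to 24.8, 26.0 and 22.3 CPM, with no overlap (0.57 ± 0.10, edgeR adjusted p 0.000992), and RRP41 by 0.42 ± 0.09 (edgeR adjusted p 0.00423). HEN2 (AT2G06990), a helicase that feeds nucleoplasmic RNA to the exosome, rose by 0.31 ± 0.09 (edgeR adjusted p 0.014). MTR4 (AT1G59760), the related nucleolar helicase, stood at 0.01 ± 0.07 and the catalytic subunit RRP44A (AT2G17510) at 0.04 ± 0.09, and neither was called. SOV (AT1G77680) rose as well, from 43.5, 38.0 and 42.7 CPM to 56.8, 58.1 and 48.6 CPM (0.40 ± 0.09, edgeR adjusted p 0.00537).

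In the SKI branch only VIP3 (AT4G29830, also SKI8) rose and only PELOTA (AT4G27650) fell at 0 min. VIP3 had the largest rise of the 37 genes, from 14.8, 10.3 and 14.2 CPM in mock to 24.5, 21.6 and 22.9 CPM in stimulus (0.81 ± 0.13, edgeR adjusted p 0.000809). VIP3 also belongs to the PAF1 complex of transcription, so its level is not that of the SKI complex alone. Its counts carry a further doubt, because opposite-strand genes cover 42.6% of its exon bases and strand-aware counting was not stated. The SKI2 (AT3G46960) helicase (0.11 ± 0.07) and the scaffold SKI3 (AT1G76630, -0.09 ± 0.07) were not called. PELOTA, which rescues stalled ribosomes in no-go decay, was at 19.0, 18.9 and 19.4 CPM in mock and 17.0, 15.9 and 15.2 CPM in stimulus, a change of -0.25 ± 0.08 (edgeR adjusted p 0.0228).

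The remaining 3 branches had no call. XRN4 (AT1G54490), the cytoplasmic 5′-3′ exonuclease, was at 53.7, 44.8 and 47.4 CPM in mock and 42.3, 44.4 and 39.9 CPM in stimulus (-0.20 ± 0.09, edgeR adjusted p 0.0748), and this turned to 0.05 with total-count scaling. The nuclear exonucleases XRN2 (AT5G42540, -0.01 ± 0.08) and XRN3 (AT1G75660, -0.03 ± 0.08) were near 0. UPF1 (AT5G47010), the helicase of nonsense-mediated decay, was at 78.7, 72.8 and 79.1 CPM in mock and 85.2, 90.1 and 86.3 CPM in stimulus, which did not overlap but missed the threshold (0.18 ± 0.07, edgeR adjusted p 0.054). UPF2, its partner, missed it in the other direction (-0.18 ± 0.07, edgeR adjusted p 0.0559), and UPF3 (AT1G33980, -0.06 ± 0.07), which joins them, overlapped between treatments. URT1 (AT2G45620), the main uridylyltransferase of mRNA, was at 26.3, 21.6 and 23.9 CPM against 23.1, 21.1 and 23.4 CPM (-0.09 ± 0.09; 0.16 with total-count scaling), and HESO1 (AT2G39740), known for uridylating unmethylated small RNAs, at -0.07 ± 0.10.

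Precision limits these calls. In simulated counts at 0 min, a change of 0.5 log2 units was found in 92 of 192 genes and one of 1 in 173 of 186. Most members changed by less. Only those genes were changed, among 20962 and 21002 tested, and every gene was given the same spread. In the data 56.3% of genes were called, which eases the adjusted threshold, so the simulation does not give the recovery of the members. Of the 17 calls, 10 (RH6, RH12, VCS, CCR4A, CCR4B, RRP4, RRP41, HEN2, VIP3 and SOV) were kept with each library left out in turn. Without mock replicate 4 the count was 11 (29.7%, against 50.7% of all genes). With the spread shared over all 24 libraries, 2 calls were left, RH6 and RH12 (all genes: 22.9%). No member passed a test for a change of more than 1.5-fold (all genes: 24.2%), although the fitted values of RH6 (0.631-fold) and VIP3 (1.75-fold) lay beyond it. Opposite-strand genes overlap 12.8% of the exon bases of HESO1, 11.9% of LSM1A and 8.68% of CCR4B, and their counts are uncertain by an amount that was not measured.

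The same comparison in the libraries of 15, 60 and 240 min gave no call among the members, with 15.9%, 7.72% and 11.3% of all genes called. At an unadjusted p under 0.05 there were 4, 1 and 2 members (all genes: 31.6%, 21.5% and 29.2%). DESeq2 called 3, 0 and 1 members (all genes: 23.8%, 14% and 20%). At 15 min same-numbered libraries deviated together, although mock replicate 2 followed stimulus replicate 3 (correlation 0.471) more than stimulus replicate 2 (0.244). With the number as a block, 3 members (8.11%, against 26.6% of all genes) were called: VIP3 (0.72, edgeR adjusted p 0.0137), CCR4B (0.38, 0.0429) and RH6 (-0.52, 0.0445). At 240 min, 7 members (18.9%, against 37.3% of all genes) were called without mock replicate 4, of which CAF1A, CCR4A, VCS and RH12 were higher and PAT1, RH6 and DCP2 lower. Without stimulus replicate 4, 4 members (10.8%, against 21.3% of all genes) were called at 15 min.

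Some members kept the same direction over time, but as a set they did so less often than all genes. Of the 37 genes, 14 (37.8%) were higher in stimulus at 4 of 4 time points and 6 (16.2%) lower, against 33.1% and 34.8% of 19281 genes. RH6 changed by -0.66, -0.51, -0.48 and -0.71 on the log2 scale at 0, 15, 60 and 240 min, RH12 by 0.53, 0.36, 0.32 and 0.35, and CCR4A by 0.53, 0.34, 0.38 and 0.55. VIP3 went from 0.81 over 0.73 and 0.60 to 0.15 ± 0.41 at 240 min. The libraries of each time point are separate, but those of 60 and 240 min include the mock series whose decline went against its labels.

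**Figure D3:**
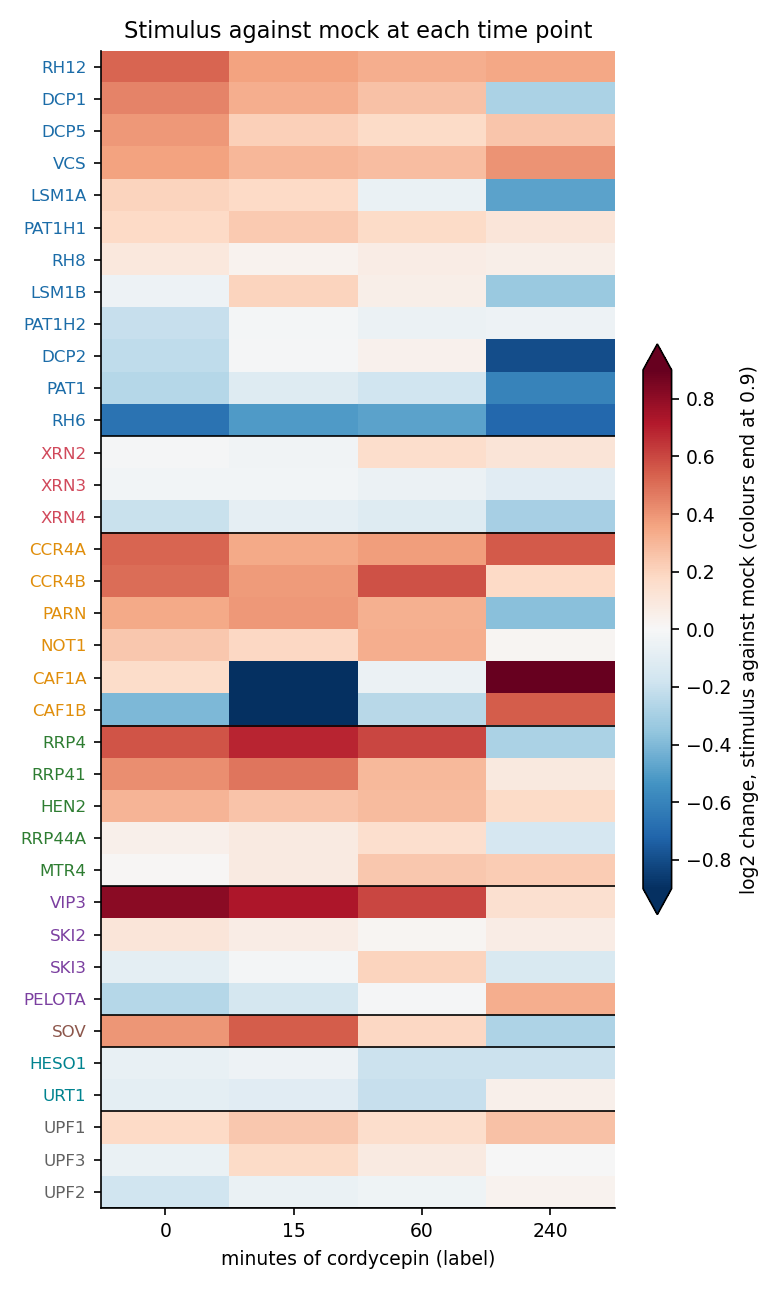
The log2 change in stimulus against mock for each decay gene reported, at 0, 15, 60 and 240 min, with branches set apart by lines and gene names coloured by branch; red is higher in stimulus and blue lower. RH6 is blue and RH12, CCR4A and VCS are red in all 4 columns, while CAF1A and CAF1B change from blue at 15 min to red at 240 min and DCP1, PARN, RRP4 and SOV are red up to 60 min and blue at 240 min.

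Averaged over the 4 time points, with 12 libraries against 12, 7 members were higher and 3 lower, 27% against 51.3% of 22307 genes (25.1% higher, 26.2% lower). RH6 was the clearest, at -0.58 ± 0.08 (edgeR adjusted p 3.58e-06). Its level had a lowest, median and highest value of 32.5, 47.3 and 56.9 CPM in mock and 26.3, 31.1 and 38.0 CPM in stimulus, scaled over 24 libraries. The ranges overlapped between 32.5 and 38.0 CPM, and of the mock libraries those labelled replicate 4 at 60 and 240 min were lowest. RH12 (0.40 ± 0.08), CCR4A (0.46 ± 0.11), CCR4B (0.42 ± 0.11), VIP3 (0.58 ± 0.16) and HEN2 (0.26 ± 0.07) were higher with adjusted p (edgeR) from 0.000286 to 0.0044, followed by UPF1 (0.22 ± 0.09, 0.0363) and NOT1 (0.20 ± 0.08, 0.0438). PAT1 (-0.28 ± 0.10, edgeR adjusted p 0.0247) was lower, as was XRN4 (-0.17 ± 0.06, edgeR adjusted p 0.0281), which stood at 0.14 with total-count scaling. RH6, RH12 and CCR4B were called with any 1 replicate number left out; without replicate 2, and likewise without replicate 3, 4 members (10.8%) were called, against 34.8% and 39.5% of all genes. On the high side of the clock score only 15 and 240 min held both treatments, each with 1 mock library, so only these were compared. The low side held 1 stimulus library at 240 min. With groups of 1 library, only the size of the change is given within each side. The median member stood at 0.143 on the high side and 0.063 on the low side (all genes: 0.056 and 0.029).

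Time in cordycepin was then compared within each treatment, as a slope of log2 counts per hour relative to the typical transcript. In mock, none of 21195 genes (0%) was called in either direction, with 286 genes (1.35%) and no member at an unadjusted p under 0.05, and DESeq2 also called no member. In stimulus, 6 members fell and 1 rose relative to the typical transcript, 18.9% against 20.5% of 21530 genes (8.73% rising, 11.8% falling). DCP2 (-0.25 ± 0.05 log2 units per hour, SE), PARN (-0.24 ± 0.07), VIP3 (-0.24 ± 0.06), LSM1A (-0.22 ± 0.06), PAT1 (-0.10 ± 0.03) and CCR4B (-0.10 ± 0.03) fell, and PELOTA rose (0.13 ± 0.04), with edgeR adjusted p from 0.0314 to 0.0387. These calls were in decapping, deadenylation and the SKI branch, and none was in the exosome, where RRP4 had the steepest slope (-0.29 ± 0.10) and missed the threshold (edgeR adjusted p 0.0536). Without replicate 2 no member was called, and none of 21624 genes. With a factor for each group that holds photosynthesis transcripts constant, 20 members rose and 1 fell (all genes: 34.3% and 4.47%), with the median slope of all genes at 0.086. None of the 7 slopes changed sign under it: DCP2 stayed called lower (-0.16) and PELOTA called higher (0.22), while the other 5 lay between -0.14 and -0.005 and were not called.

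DCP2 was the clearest of these. In stimulus it went from 11.2 over 11.6 and 7.27 to 6.17 CPM in replicate 2, from 11.6 over 11.6 and 12.1 to 5.8 CPM in replicate 3, and from 10.2 over 8.92 and 6.39 to 4.71 CPM in replicate 4. Mock replicate 4 fell likewise, from 12.8 to 4.77 CPM. Mock replicate 2 stayed between 11.4 and 12 CPM, and mock replicate 3 fell to 6.29 CPM at 60 min and stood at 12.2 CPM at 240 min, as its decline index did.

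VIP3 fell in each stimulus series, from 22.4 to 9.81 CPM, from 19.6 to 14.3 CPM and from 20.2 to 7.35 CPM between 0 and 240 min in replicates 2, 3 and 4. In mock it went from 13.1 to 12.4, from 9.17 to 10.8 and from 12.6 to 4.83 CPM. PAT1 fell from 52.5 to 38.7, from 48.2 to 33.2 and from 45.5 to 33.0 CPM in stimulus. In mock, PAT1 went from 61.6 to 63.8, from 51.3 to 60.7 and from 59.0 to 33.5 CPM, so that only replicate 4 ended low. CCR4B had stimulus values from 32.7 to 27.0, 31.8 to 23.1 and 30.6 to 20.2 CPM, and mock values from 23.6 to 23.1, 20.0 to 26.3 and 22.5 to 12 CPM. In the library labelled mock replicate 3 at 60 min, CCR4B was at 16.1 CPM and PAT1 at 37.5 CPM, below the same series at 0 and 240 min.

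**Figure D4:**
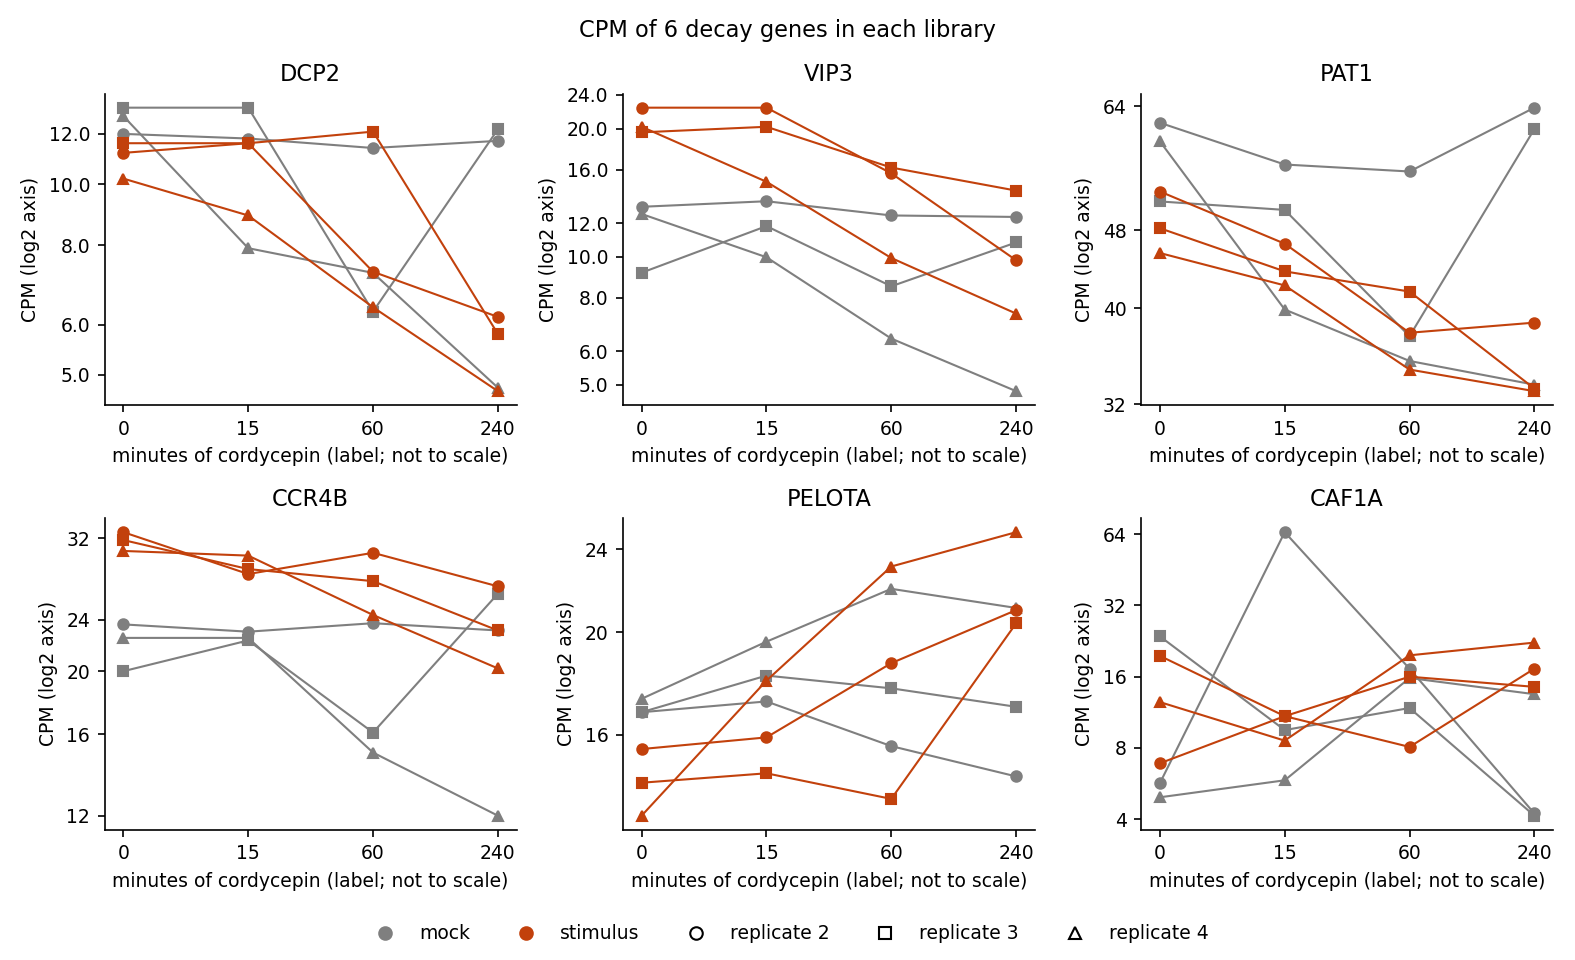
CPM of DCP2, VIP3, PAT1, CCR4B, PELOTA and CAF1A in each of the 24 libraries on a log2 axis, by labelled minutes of cordycepin; each line joins the libraries that share a treatment and number. In the first 4 panels, stimulus series end lower than they began, mock replicate 2 changes little, and mock replicate 3 dips at 60 min and is higher again at 240 min; CAF1A peaks at 65.3 CPM in mock replicate 2 at 15 min.

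No difference in slope between treatments was called by edgeR for any of 22307 genes (0%), with 7.35% of genes and 2 members at an unadjusted p under 0.05, and DESeq2 called no member. PELOTA had the smallest p of the members (0.14 ± 0.05 log2 units per hour more in stimulus, unadjusted p 0.017, edgeR adjusted p 0.668). It rose in stimulus from 15.5 to 21.0, 14.4 to 20.4 and 13.4 to 24.9 CPM between 0 and 240 min, and in mock went from 16.8 to 14.6, 16.8 to 17.0 and 17.3 to 21.1 CPM. CAF1A came next (0.50 ± 0.23, edgeR adjusted p 0.673), with mock values at 240 min of 4.23, 4.14 and 13.5 CPM and stimulus values of 17.3, 14.5 and 22.3 CPM. The 2 low mock libraries, of replicates 2 and 3, are those with a decline index of -0.11 and -0.46 at 240 min, and their part in these differences was not tested.

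Because the minutes on the labels and the decline index were in conflict, each gene was also set against the index itself. The index ranks the libraries by how far its own 100 transcripts had fallen. A separate list of stress-factor transcripts, taken as short-lived, did not follow it. The mean log2 change of that list since 0 min was 1.81 and 1.96 in mock and stimulus replicate 4 at 240 min. It was -0.78 in mock replicate 3 at 240 min, and the reason was not tested. A positive slope means that a transcript fell along with the index transcripts, and a negative slope that its share rose. These slopes are a description without a test, since the index and the genes come from the same libraries, and the index transcripts were chosen in a stimulus series. Of the 37 genes 32 (86.5%) had the same sign in mock and stimulus, as had 86.1% of all genes, and the median member stood at 0.072 in mock and -0.009 in stimulus, against 0.007 and -0.003 over all genes.

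Branches did not move as units on this measure. In decapping, DCP2 (0.40 in mock, 0.35 in stimulus), LSM1B (0.27, 0.30), LSM1A (0.24, 0.39) and DCP1 (0.21, 0.29) fell with the index transcripts. VCS (-0.36, -0.32), DCP5 (-0.34, -0.27), RH8 (-0.21, -0.16) and RH12 (-0.19, -0.11) gained share. RH6 stood at 0.17 and 0.04, and its share of the helicase sum was 27.3 and 27.5% in mock replicate 4 at 60 and 240 min and 21.2 and 21.5% in stimulus replicate 4. In stimulus replicate 4 at 15 min, where the index was already -1.59, the share was 33.0%, the highest of the stimulus libraries. In deadenylation, PARN (0.56, 0.35) and CCR4B (0.26, 0.11) fell while CCR4A (-0.24, -0.21) gained. The exosome core subunits RRP4 (0.53, 0.61) and RRP41 (0.41, 0.36) fell steeply, and the helicases MTR4 (0.01, -0.09) and HEN2 (-0.05, -0.04) stayed near 0. XRN4 (-0.01, -0.004) followed the typical transcript.

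**Figure D5:**
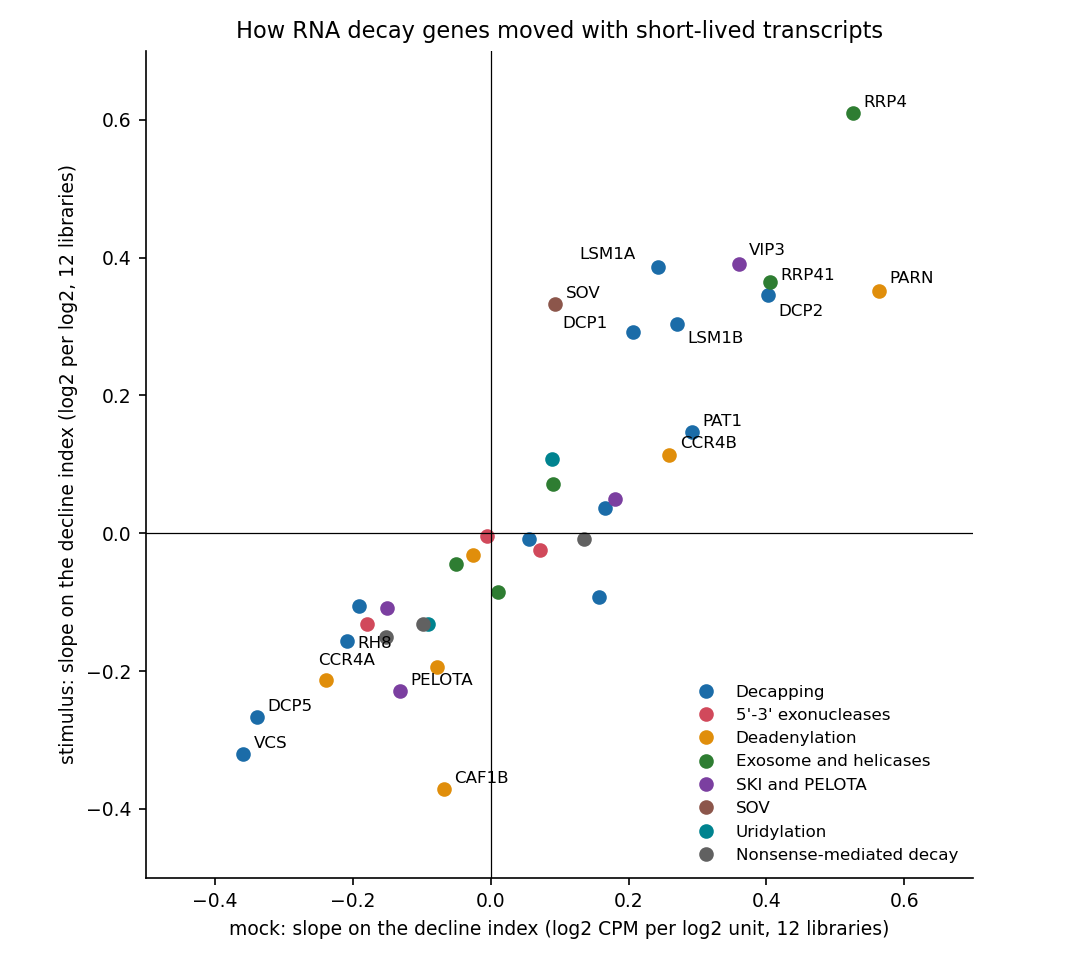
For each decay gene reported, the slope of log2 CPM on the decline index over the 12 mock libraries (horizontal) and over the 12 stimulus libraries (vertical), coloured by branch; genes with a slope beyond 0.2 in size are named. RRP4 and PARN are at the upper right, VCS and DCP5 at the lower left, and decapping genes spread from one end to the other.

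A wider list of 43 decay genes outside the members, chosen by function, put the branches in context at 0 min: 16 rose and 4 fell (46.5% called, against 56.3% of all genes), with a median of 0.226. The LSM2-8 ring, which serves splicing and shares most subunits with the LSM1-7 ring, had 7 of 9 genes higher (median 0.431). An opposite-strand gene overlaps 30.8% of the exon bases of LSM5, which was among those called. The further exosome core subunits had 6 of 9 higher (median 0.455), and neither set had a gene called lower. RRP40A (0.81 ± 0.09), CSL4 (0.69 ± 0.10) and RRP42 (0.68 ± 0.11), all of the exosome core, were the largest rises of the list, with edgeR adjusted p from 8.68e-05 to 0.000588. Of 6 other subunits of the CCR4-NOT complex none rose, and NOT2B fell by 0.30 on the log2 scale (edgeR adjusted p 0.0136). Of 6 further genes of the CAF1 and CCR4 families 1 rose, AT2G32070 (0.34, edgeR adjusted p 0.00337), and 2 fell, AT5G10960 by 0.31 (edgeR adjusted p 0.00857) and AT1G80780 by 0.22 (edgeR adjusted p 0.0271). AT2G32070 and AT1G80780 were named after their values were seen.

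FRY1 changed more at 0 min than any of the 37 members. FRY1 (SAL1) is a phosphatase that removes PAP, a compound that inhibits XRN exonucleases. Its level was 53.3 ± 7.42 CPM in mock and 26.0 ± 0.883 CPM in stimulus at 0 min (SD, n = 3), a log2 change of -1.03 ± 0.11 (edgeR adjusted p 4.3e-05). It was also called lower at 15, 60 and 240 min (-0.99, -1.09 and -0.96; edgeR adjusted p 0.016, 0.024 and 0.0321), where no member was called.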

How the data were processed

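Raw counts per feature were deposited as 1 table by the authors, with a column for each library. Per the labels, total RNA was depleted of ribosomal RNA, made into stranded libraries and read as 50-base single reads. Per the submitters' processing notes, TopHat2 and Bowtie2 were used with build TAIR10; the counting tool and its use of strand are not given in the sources used here. Gene names and exon lengths came from the RefSeq annotation of TAIR10.1 by locus (all 37 genes matched), and no coordinates are given. The values of 1 nonsense-mediated decay member are not reported here, although the gene is included in the counts and medians. The members, the wider list and the tests were chosen with earlier results of these data known. Groups follow the labels. Nothing says that replicates came from separate plants, so p-values measure the spread between these samples.

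Counts were tested with edgeR 4.0.16 in R 4.3.3 (quasi-likelihood F tests with robust dispersion, TMM scaling, filterByExpr), after checks on simulated data, with Benjamini-Hochberg adjustment over all genes tested and calls at an adjusted p under 0.05. Treatments were compared at each time point over 6 libraries and on average over 24. Slopes on labelled minutes were fitted over 12 libraries per treatment, and their difference over 24, with no decay factor. SE is the estimate divided by the root of F. Alternatives were DESeq2 1.42.0, other scalings, no filter, decay factors, the replicate number as a block, a clock covariate, fewer time points and leaving out each replicate. At 15 min same-numbered libraries deviated together (correlations 0.244, 0.319 and 0.703), but mock replicate 2 and stimulus replicate 3 reached 0.471. At 0, 60 and 240 min at least 1 same-numbered pair did not deviate together. Named genes were, in each branch, the largest change at 0 min, members called at 1.5-fold or more, the 4 with the smallest p for the stimulus slope, the 2 with the smallest p for the slope difference, and 3 called genes per direction of the wider list; other members whose library values are given were chosen after seeing them. Replicates always differed beyond counting noise, with chi-square over its degrees of freedom from 6.52 to 222.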

Additional observations from a re-analysis of the deposited data

How the results depend on the processing

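Percentages in brackets are the share of all genes called under the same setting. At 0 min the 17 calls (56.3%) became 18 with median-ratio scaling (56.6%) and 23 with total counts (61.3%), 22 higher and 1 lower. They were 15 with no filter (35.9%) and 15 with DESeq2 (54.6%). With the replicate number as a block they were 14 (53.8%), although same-numbered libraries shared only a number there (correlations -0.007, 0.068 and -0.093). Leaving out each library gave 11 to 17 (47.3% to 55.9%). Requiring more than 1.5-fold left 0 (24.2%), and a spread shared over 24 libraries left 2, RH6 and RH12 (22.9%). With total counts DCP2 (0.019), XRN4 (0.049) and URT1 (0.162) turned positive, as did XRN4 in the average (0.136). At 15 min the 0 calls (15.9%) became 11 with total counts (24.2%), 3 with DESeq2 (23.8%) and 3 with the replicate block (26.6%). They were 0 to 4 without 1 library (4.14% to 21.3%). At 60 min only total counts gave any, 4 (10.2%). At 240 min total counts gave 6 (15.5%), DESeq2 1 (20%) and the replicate block 1 (17.6%), which was CAF1A at 1.51. There, leaving out 1 library gave 0 to 7 (1.15% to 37.3%). In the average, the 10 calls (51.3%) became 22 with total counts (56.4%) and 15 with the replicate block (56.2%). Leaving out 1 replicate gave 4 to 12 (34.8% to 50.8%). The fits within each side of the clock score were alternatives chosen after seeing the data. The 7 slopes called in stimulus (20.5%) became 15 with DESeq2 (33%), 14 with the replicate block (34.2%) and 18 with the clock covariate (38.7%). A decay factor per group gave 21 (38.7%) and one per library gave 0 (1.9%). From 0 to 60 min there were 0 (0%), and with minutes as a factor 0 (0%). Without 1 replicate there were 0 to 8 (0% to 19.2%). The slope difference had 0 calls except 5 with a decay factor per group (10.2%). Where a count moved and no value above shows why, the cause was not tested. In mock all alternatives gave 0. Depth limits CAF1B most, at 24 to 264 counts per library.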
